A study of Homo sapiens with 2 samples.

Results

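Nuclear-encoded subunits of the mitochondrial respiratory complexes were followed in SW48 cells, a line long established from a human colorectal tumour. They were chosen by gene symbol alone, as the rows of the deposited value table whose platform symbol named a subunit of complex I (NDUFA, NDUFB, NDUFC, NDUFS, NDUFV and NDUFAB series), complex II (SDHA to SDHD), complex III (UQCR series and CYC1), complex IV (COX4 to COX8 with a suffix) or complex V (ATP5 series). Assembly factors, pseudogenes and non-coding transcripts were left out. This gave 79 of 17687 named genes, each with 1 probe set, a group of probes summarized to 1 value. The study transfected SW48 cells with an siRNA against YY1 (siYY1) or with a negative control siRNA (siControl), each at 5 nmol/L, and isolated total RNA after 3 days. Both groups share the cell line, the medium with serum and the lipid transfection reagent, and the siYY1 group rests on 1 siRNA against the gene. There was 1 whole-transcript GeneChip per group, so no difference below has a replicate check, no test was possible, and the values describe these arrays. The level of YY1 was not analysed here, so the knockdown itself was not checked.

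The respiratory chain lies in the inner mitochondrial membrane. Complexes I and II feed electrons from NADH and succinate to ubiquinone, complex III passes them to cytochrome c, complex IV reduces oxygen, and complex V uses the resulting proton gradient to make ATP. All of complex II and most subunits of the others are encoded in the nucleus, and the transcription factors NRF1, GABP (an ETS factor) and YY1 are known for binding promoters of such genes.

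The values were used as log2, a scale read from the values themselves, and every difference is siYY1 minus siControl. Genes were kept when their mean over both arrays reached the median of all named genes (7.54), which kept 8844 genes and 73 of the 79 subunits. Of 11 colorectal epithelial markers 7 were kept: EPCAM, CDH1, KRT8, KRT18, KRT19, CDX2 and CDH17. The others did not pass, with values down to 4.11 in siControl and 3.73 in siYY1. Of the leukocyte, fibroblast and endothelial markers, 0 of 4, 0 of 4 and 0 of 4 were kept. The subunits were mostly bright, with 64 of the 73 at or above the upper quartile of all named genes (10.83). Many of them have processed pseudogenes whose sequence a probe can share, so single values carry that uncertainty.

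The sequences shown first are the promoters, read from RefSeq (GRCh38.p14), of the subunits on which the results below turn. They belong to SDHA and SDHD of complex II, whose measured subunits were lower together, and to the 4 subunits that differed by at least 1.5-fold. The promoter of SDHC, the other complex II gene measured, is not shown. Each run lies directly upstream of the transcription start, is written 5′ to 3′ on the gene's strand, and comes from the most upstream start listed. Capitals mark matches to the motifs searched on both strands: GCCATNTT for the YY1 core, a longer YY1 form of 11 letters that holds the reverse of the core, the palindromic NRF1 motif of 10 letters, and CCGGAAGT for ETS factors. The NRF1 letters can be read in the SDHD run and the longer YY1 form in the windows of NDUFA9, NDUFS4 and UQCRC1 further on. The windows are chr5:218200-218319 (plus strand) for SDHA, chr11:112086753-112086872 (plus) for SDHD, chr15:74938074-74938173 (minus) for COX5A, chrX:77899368-77899467 (plus) for COX7B, chr12:53676331-53676430 (minus) for ATP5MC2 and chr4:139302552-139302651 (minus) for NDUFC1.
SDHA: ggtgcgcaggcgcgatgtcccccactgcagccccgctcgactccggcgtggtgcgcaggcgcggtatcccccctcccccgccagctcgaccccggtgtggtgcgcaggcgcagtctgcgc
SDHD: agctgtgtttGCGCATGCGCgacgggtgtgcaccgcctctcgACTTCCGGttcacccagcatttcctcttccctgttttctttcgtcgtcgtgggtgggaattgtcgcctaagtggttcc
COX5A: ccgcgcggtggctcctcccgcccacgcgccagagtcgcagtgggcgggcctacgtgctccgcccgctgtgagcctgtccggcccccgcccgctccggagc
COX7B: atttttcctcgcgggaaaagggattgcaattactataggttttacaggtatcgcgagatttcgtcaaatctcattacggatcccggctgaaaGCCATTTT
ATP5MC2: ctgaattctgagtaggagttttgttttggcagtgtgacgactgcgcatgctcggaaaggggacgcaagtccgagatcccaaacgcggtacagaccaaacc
NDUFC1: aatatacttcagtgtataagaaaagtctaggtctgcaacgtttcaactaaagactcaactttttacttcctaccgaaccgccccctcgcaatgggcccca

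Most respiratory subunits were slightly lower in siYY1. Of the 73 kept, 49 lay below 0 (67.1%), against 49.6% of all kept genes and 48.4% of genes at or above the upper quartile. Their median difference was -0.10, with the middle of the list running from -0.22 (lower quartile) to 0.04 (upper quartile), beside a median of 0.00 over all kept genes. Each array is a bulk sample, in which fewer cells of a kind and less RNA per cell cannot be told apart. The tilt was made of small differences: 56 of the 73 subunits lay within 0.25 of 0 (76.7%, against 63.0% of all kept genes and 69.9% of genes at or above the upper quartile).

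Large differences were about as frequent as over the whole array. In all, 4 subunits were at least 1.5-fold apart between the arrays (5.48%), against 6.82% of all kept genes and 4.61% of genes at or above the upper quartile. The complex I subunit gene NDUFC1 was higher (1 of 73, background 3.04%), and the complex IV subunit genes COX5A and COX7B and the complex V gene ATP5MC2 were lower (3 of 73, background 3.78%). The standard deviation of the differences was 0.25 over the subunits and 0.32 over all kept genes.

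**Figure D1:**
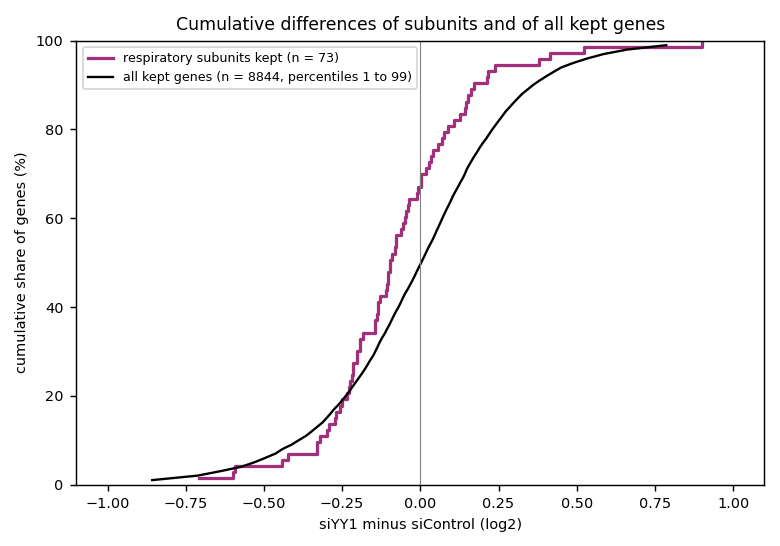
Cumulative share of genes (percent) against siYY1 minus siControl (log2) for the 73 subunits kept and, as a smooth line, for all 8844 kept genes. The subunit curve stands to the left around 0, where 67.1% of subunits and 49.6% of all kept genes lie below 0, and the curves cross further left.

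By complex, the median difference was -0.10 in complex I (32 genes), -0.33 in complex II (3 genes), 0.08 in complex III (9 genes), -0.09 in complex IV (12 genes) and -0.08 in complex V (17 genes). Complex III had 5 of 9 genes above 0. Without UQCRHL, an intronless copy of UQCRH that probes may not separate from it, 4 of 8 were above 0 and the median was 0.03. The stricter filter, at the upper quartile, removed only UQCRHL from this complex and so gave the same median by construction. In the other complexes 22 of 32, 3 of 3, 8 of 12 and 12 of 17 lay below 0. Over all kept genes 49.6% lay below 0, the share to set beside these counts and those of the modules below. Sets this small can depart from that share without any trait of their own.

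**Figure D2:**
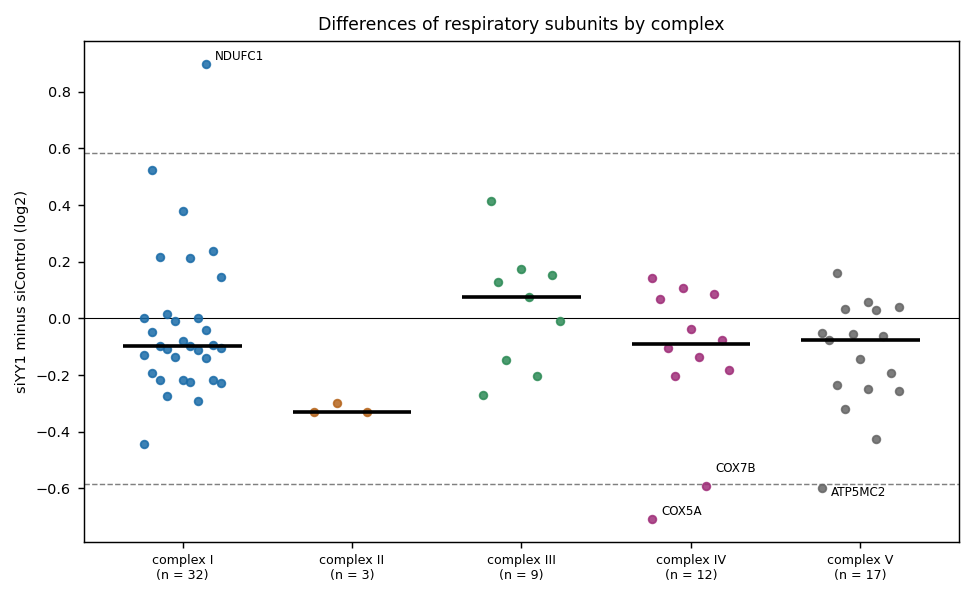
Each point is 1 kept subunit, placed by complex along the x axis, with siYY1 minus siControl (log2) on the y axis; black bars are medians and dashed lines mark 1.5-fold. The 3 complex II points sit together near -0.3, complex III is the only complex with a median above 0, and 4 labelled genes pass a dashed line.

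Complex I, the NADH dehydrogenase, is L-shaped: its matrix arm holds the N module, which oxidizes NADH, and the Q module, which reduces ubiquinone, and its membrane arm, the P module, pumps protons. In the N module 8 of 9 subunits were below 0, with a median of -0.13. NDUFV1, which binds NADH and its flavin cofactor, went from 14.22 in siControl to 14.12 in siYY1 (difference -0.11). The iron-sulfur subunit NDUFV2 went from 12.68 to 12.54 (-0.14).

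The 3 lowest genes of the module were accessory subunits, while its other accessory subunits reached from -0.13 to 0.21. NDUFA12 went from 11.94 to 11.65 (-0.29), NDUFA7 from 12.08 to 11.80 (-0.27) and NDUFA2 from 11.47 to 11.24 (-0.23). NDUFS4, an accessory subunit mutated in Leigh syndrome, was the 1 N module gene above 0, from 11.64 to 11.86 (0.21). No member of this module reached 1.5-fold.

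The Q module was split. The core subunit NDUFS3 went from 11.81 to 11.59 (-0.22), and NDUFS7, which carries the iron-sulfur cluster next to the quinone site, from 8.18 to 7.96 (-0.22). NDUFA9 went from 13.68 to 13.92 (0.24) and NDUFA5 from 11.70 to 11.92 (0.22). The core subunits measured here were thus lower and the accessory subunits higher by a like amount, over 4 genes.

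The membrane arm held both ends of complex I. NDUFC1, a small membrane subunit, went from 9.60 to 10.50, a difference of 0.90 or 1.87-fold, and 0.577% of all kept genes had a larger positive difference. NDUFA10, whose fold resembles nucleoside kinases, stood at the other end of the complex, from 12.67 to 12.23 (-0.44). Of the 18 genes of the P module, 12 were below 0.

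In the distal part of the arm, 2 further subunits were the next highest of complex I. NDUFB2 went from 10.88 to 11.40 (0.52, 1.44-fold) and NDUFB5 from 13.71 to 14.09 (0.38). The other 9 NDUFB genes lay between -0.22 (NDUFB9) and 0.15 (NDUFB11). NDUFAB1, the mitochondrial acyl carrier protein that is also a complex I subunit, differed by 0.00 (12.06 on both arrays).

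Complex II, succinate dehydrogenase, is the enzyme shared by the chain and the tricarboxylic acid cycle. All 3 of its genes measured here were lower by nearly the same amount. SDHA, the flavoprotein that oxidizes succinate, went from 13.04 to 12.71 (-0.33). The membrane anchor genes SDHC and SDHD, which hold the haem and help form the quinone site, went from 12.25 to 11.95 (-0.30) and from 12.60 to 12.27 (-0.33). None reached 1.5-fold, and 13.0% of all kept genes lay below SDHD and 15.0% below SDHC.

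Complex III, the cytochrome bc1 complex, had no member past 1.5-fold. CYC1, the haem-bearing cytochrome c1, was nearly level, from 13.08 to 13.07 (-0.01). The core proteins went opposite ways, UQCRC1 from 13.60 to 13.78 (0.17) and UQCRC2 from 15.58 to 15.38 (-0.20).

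The small accessory subunits of complex III spread from -0.27 to 0.42. UQCR10 was highest, from 12.47 to 12.89 (1.33-fold), and 7.51% of all kept genes had a larger positive difference. UQCRB, which binds near the quinone site, differed by 0.15 (13.51 to 13.67). UQCR11 was lowest, from 12.61 to 12.34 (-0.27). The hinge protein gene UQCRH, from 12.91 to 12.77 (-0.15), and its copy UQCRHL, from 9.35 to 9.48 (0.13), had opposite signs.

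Complex IV, cytochrome c oxidase, held the largest negative differences of all subunits. COX5A, a matrix-side subunit of the enzyme, went from 13.67 to 12.96, a difference of -0.71 or 1.63-fold, and 2.06% of all kept genes lay lower. COX7B, a small membrane subunit, went from 13.85 to 13.25 (-0.59, 1.51-fold), just past the threshold. The other 10 kept genes of the complex lay between -0.20 and 0.14.

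The remaining kept complex IV subunits differed less, by -0.20 to 0.14. COX4I1, the widely expressed form of subunit 4, went from 11.69 to 11.56 (-0.13), and COX5B, which binds zinc, from 10.83 to 10.73 (-0.10). COX7C (13.82 to 13.62, -0.20) and COX6C (13.77 to 13.59, -0.18) were the next lowest. COX6A1 was highest, from 14.53 to 14.68 (0.14).

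Several complex IV subunits exist as isoforms from separate genes, the second often restricted to muscle, lung or testis. Of 6 tissue-restricted isoforms, 5 did not pass the filter: COX4I2, COX6B2, COX7A1, COX7B2 and COX8C lay between 3.60 and 4.96 on both arrays. Nothing shows these dim values to exceed background. COX6A2, the heart and muscle form, passed narrowly at 7.76 and 7.87 (0.11), the same sign as COX6A1.

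Among the isoforms that passed, COX7A2 went from 12.07 to 11.99 (-0.08). COX7A2L, a relative that joins complexes III and IV into supercomplexes, went from 13.46 to 13.54 (0.09). COX8A differed by 0.07 (15.16 to 15.23) and COX6B1 by -0.04 (13.12 to 13.08). COXFA4, long known as NDUFA4 and now placed in complex IV, does not carry a symbol of the rule and is no member; it was level at 15.07 and 15.06.

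Complex V, the ATP synthase, joins the F1 head that makes ATP to a membrane rotor, the c-ring, through a central and a peripheral stalk. The 4 F1 genes measured were all below 0, with ATP5F1D, the delta subunit of the central stalk, the lowest (13.03 to 12.61, -0.42). The catalytic beta subunit ATP5F1B went from 16.44 to 16.39 (-0.05), the alpha subunit ATP5F1A from 14.51 to 14.45 (-0.06) and the gamma subunit ATP5F1C from 14.89 to 14.81 (-0.08). On both arrays ATP5F1B exceeded 16, the highest log2 value a 16-bit scan can give, so how much it differed is uncertain.

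The c-ring genes were the most spread group of complex V. ATP5MC1, ATP5MC2 and ATP5MC3 are known to encode the same mature c subunit with different import sequences. ATP5MC2 went from 14.48 to 13.88 (-0.60, 1.52-fold) and ATP5MC1 from 15.15 to 14.91 (-0.25), while ATP5MC3 went from 12.39 to 12.55 (0.16). The genes for 1 protein thus did not move alike.

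The peripheral stalk genes were divided: ATP5PD (13.48 to 13.24, -0.23) and ATP5PO (14.30 to 14.10, -0.19) were lower, while ATP5PB (14.36 to 14.40, 0.04) and ATP5PF (15.86 to 15.92, 0.06) were nearly level. Of the membrane subunits, ATP5ME was lowest, from 11.27 to 10.95 (-0.32), and ATP5MF (0.03) and ATP5MG (0.03) hardly differed. ATP5IF1, the inhibitor that blocks ATP hydrolysis when the gradient fails, went from 13.00 to 12.95 (-0.05). The readthrough gene ATP5MF-PTCD1, which shares sequence with ATP5MF, went from 8.53 to 8.27 (-0.26), and the ATP5MG relative ATP5MGL (6.46 and 6.50) did not pass the filter.

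**Figure D3:**
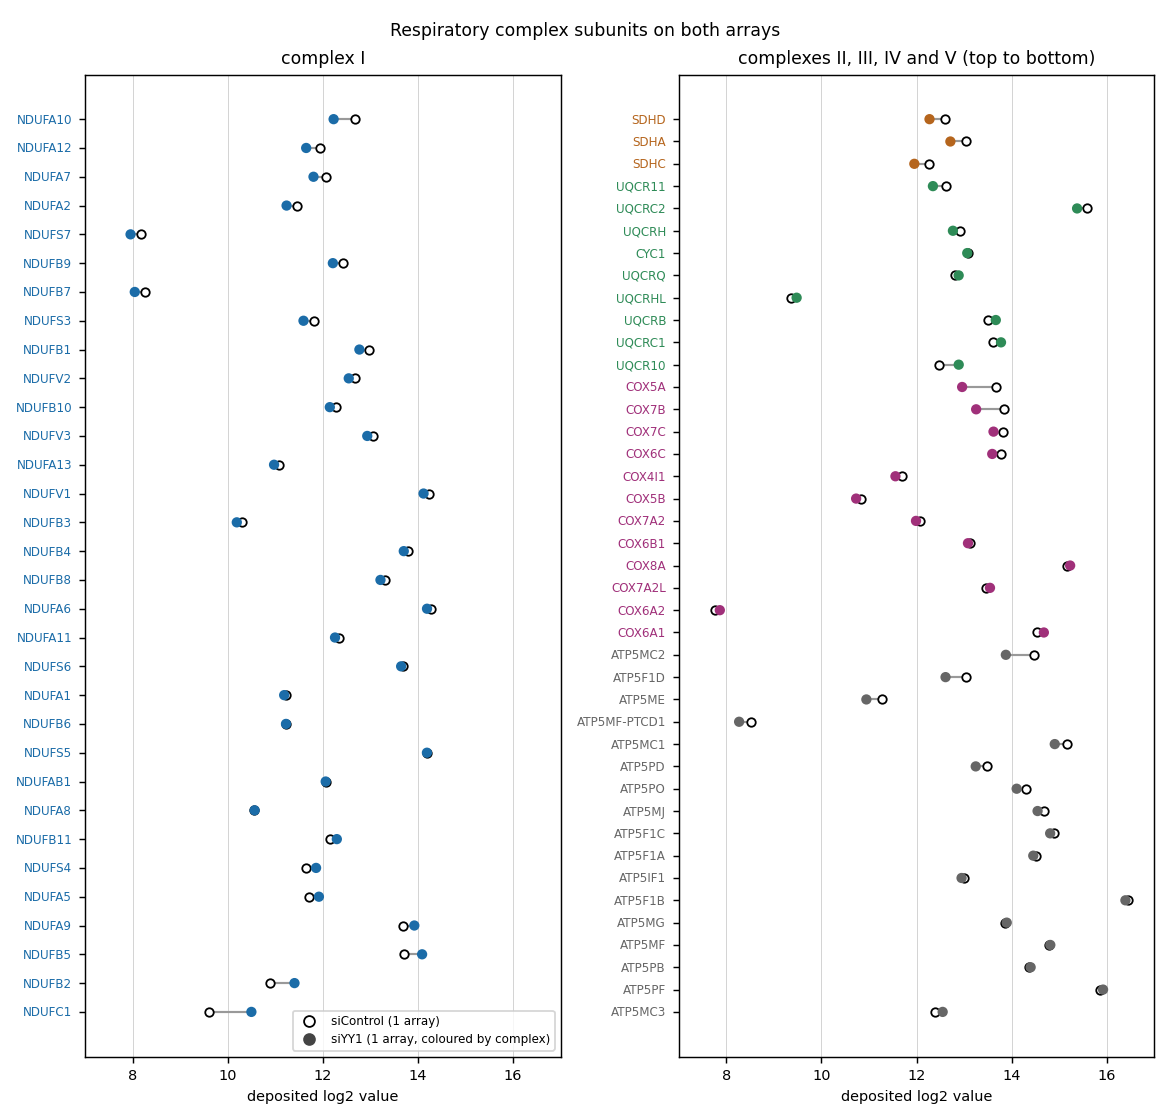
Deposited log2 values (x axis) of the 73 kept subunits on the siControl array (open points) and the siYY1 array (filled points, coloured by complex), 1 gene per line, sorted by difference within each complex. Filled points lie to the left of open ones for 49 genes; levels of different genes come from different probes and are not comparable with each other.

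The other genes of the pathway were then set beside the subunits. Of the 61 assembly factors measured, which build the complexes without staying in them, 57 were kept. Of these, 38 were below 0 (66.7%, against 49.6% of all kept genes), and the median was -0.10, the same as for the subunits. Only 3 were past 1.5-fold (5.26%, against 6.82% of all kept genes), so large differences were no more frequent than over the array. NDUFAF1, a complex I assembly factor, was higher, from 9.26 to 9.96 (0.70), as was DMAC2, an assembly factor of the distal membrane arm of complex I, from 11.77 to 12.37 (0.60). UQCC3, needed for complex III, was lower (9.51 to 8.30, -1.21), the largest negative difference on these lists.

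Within the lists, complex I assembly factors had a median of -0.06 over 18 genes. Their lowest members were TMEM126B (10.44 to 9.88, -0.56) and NDUFAF3 (13.75 to 13.20, -0.55). The 9 complex III factors had a median of -0.18, with the chaperone BCS1L, which inserts the Rieske protein, at -0.55 (11.96 to 11.40) and UQCC1 highest at 0.27. Of 3 kept complex II factors, SDHAF3 went from 11.43 to 10.90 (-0.53), the same sign as the complex II subunits, SDHAF4 differed by -0.18, and SDHAF2 differed by 0.17.

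Complex IV factors had a median of -0.08 over 23 genes and none past 1.5-fold, against 6.82% of all kept genes. COA8 (-0.43) and HIGD1A (-0.42) were lowest, and COX14 (0.31) and COA3 (0.29) were the highest of those above the filter value on both arrays. CMC1 (0.34) passed only through siYY1, at 7.48 in siControl and 7.82 in siYY1. Complex V factors were split between ATPAF1 (10.94 to 10.49, -0.45), which binds the beta subunit during assembly, and ATPAF2 (10.81 to 11.22, 0.41), which binds the alpha subunit, with a median of -0.01 over 5 genes. TMEM242 (-0.01), DMAC2L (-0.17) and TMEM70 (0.09), which is also on the complex I list, lay between them.

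The electron carrier list covers cytochrome c, the electron transfer flavoproteins and ubiquinone synthesis. Its median was -0.05 over 15 kept genes, 10 of them below 0 (66.7%, against 49.6% of all kept genes). Cytochrome c itself, CYCS, was level at 15.16 and 15.15. PDSS2, which helps make the ubiquinone tail, went from 8.02 to 8.67 (0.65, 1.57-fold), and COQ10B was next at 0.28. The synthesis enzymes COQ7 (12.13 to 11.59, -0.55) and COQ2 (11.38 to 10.86, -0.52) were lowest.

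Regulators of respiratory genes had a median of -0.10 over 8 kept genes. Of these, 4 were below 0 (50.0%, against 49.6% of all kept genes) and 0 were past 1.5-fold (against 6.82%). The nuclear receptor ESRRA (9.94 to 10.28, 0.34) and TFAM, which packages and transcribes mitochondrial DNA (13.31 to 13.56, 0.25), were highest. TFB1M (-0.34) and the coactivator PPRC1 (-0.28) were lowest. The coactivator PPARGC1A, through which YY1 is known to act on mitochondrial genes in muscle, did not pass the filter (5.10 and 5.45). Subunits encoded in mitochondrial DNA were not analysed here.

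**Figure D4:**
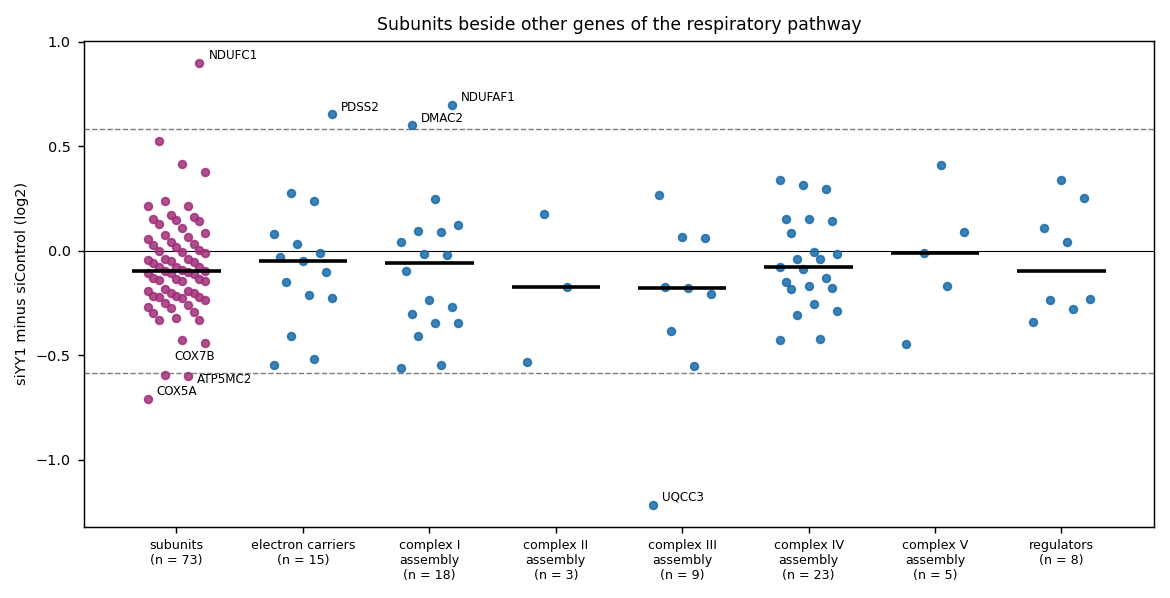
Differences, siYY1 minus siControl (log2, y axis), of the 73 kept subunits and of the kept genes of 7 other lists of the respiratory pathway, with medians as black bars and 1.5-fold as dashed lines. Every list has its median below 0, between -0.18 and -0.01, beside 0.00 over all kept genes, though only 4 of the 8 regulators lie below 0. The labelled genes are those past 1.5-fold.

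The promoter windows were compared next, from 250 bases before to 50 after the start, with a gene counted when any listed window matched. RefSeq windows were at hand for 63 of the 79 subunits and for 15843 protein-coding genes in all. The YY1 core was found in 21 of 63 subunit genes (33.3%), against 9.67% of all genes. The NRF1 motif was found in 4 (6.35% against 1.99%) and the ETS core in 10 (15.9% against 6.97%). These shares of all genes include genes not kept, so they are no matched background for the mostly bright subunits. Among kept genes, 1036 held the YY1 core and 6383 did not, beside 21 and 39 of the kept subunits. For the ETS core these counts were 830 and 6589, beside 10 and 50, and for NRF1 224 and 7195, beside 4 and 56. Of 22 YY1 core matches, 12 began within the first 30 bases after the start. Matches were counted by their place relative to a listed start, so a site of ATP5PF was counted more than once. The share of matches near the start over all genes was not computed.

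Holding the YY1 core did not go with a lower value in siYY1. The median difference was -0.05 over the 21 subunits with a match and -0.13 over the 39 kept subunits without one, beside 0.02 over all 1036 kept genes with a match and 0.00 over the 6383 without. COX7B, whose match ends at the base before its start, was among the lowest subunits, whereas UQCR10, with a match from base 28 to 35 of the transcript, was among the highest. The promoters of COX5A, ATP5MC2 and NDUFC1 held none of these motifs in the windows searched.

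The longer YY1 form was found in 3 subunit genes (4.76% against 1.58% of all genes, kept or not). These are shown as 30-base windows with the motif in capitals. They lie at chr12:4649114-4649143 (plus strand) for NDUFA9, chr5:53560650-53560679 (plus) for NDUFS4 and chr3:48609604-48609633 (minus) for UQCRC1, all just after the start.
NDUFA9: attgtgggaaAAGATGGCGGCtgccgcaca
NDUFS4: tgcctgcagcAAGATGGCGGCggtgtcaat
UQCRC1: ctgcagctggAAGATGGCGGCgtccgtggt

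All 3 of these genes were higher in siYY1, by 0.24, 0.21 and 0.17, while 57 kept subunits without this form had a median of -0.10. Over the whole array, 205 kept genes with the longer form had a median of 0.06, with 59.0% above 0, and 7214 without it had a median of 0.00, with 50.0% above 0. A match of these letters is a description of the window and does not show binding. The SDHD promoter held both an NRF1 and an ETS match, 110 to 101 and 78 to 71 bases before the start, and the SDHA window held none of the motifs.

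Many respiratory genes start head to head with a gene on the other strand. The nearest protein-coding gene with a start within 1000 bases on the opposite strand was found for 21 subunits, and both genes of the pair were kept in 15. Any listed start was used and either side was allowed, so a pair may overlap rather than start head to head. In 8 of these 15 the neighbour was above 0 and the subunit below 0, in 2 the reverse, in 3 both were below 0 and in 2 both above. Over all 1046 kept genes with a kept neighbour of this kind, 26.0% were below 0 beside a neighbour above 0, and 51.8% of pairs had opposite signs. Subunits were more often below 0 than kept genes as a whole, 67.1% against 49.6%, which raises this count. One of the 8 is ATP5F1C with KIN, which lay under the filter value in siControl (7.53, and 7.68 in siYY1) and was kept through the siYY1 array. Without it, 7 of 14 pairs were of this kind, and the median difference was -0.14 for the subunits and 0.15 for their neighbours. Over the 1046 kept genes with a kept neighbour, the medians were -0.02 for the genes and -0.02 for their neighbours.

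The widest gaps with the neighbour higher were in complexes I and II. SDHA (-0.33) starts 167 bases from CCDC127, which went from 8.11 to 8.55 (0.45). NDUFS3 (-0.22) starts 104 bases from KBTBD4, which went from 11.35 to 11.83 (0.48). NDUFC1 (0.90) starts 271 bases from NAA15, an N-terminal acetyltransferase subunit, which went from 14.49 to 14.61 (0.12). ATP5PF (0.06) and its neighbour GABPA (0.11), which encodes the DNA-binding subunit of GABP, were both nearly level. COX5A, COX7B and ATP5MC2 had no such neighbour in the table used.

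**Figure D5:**
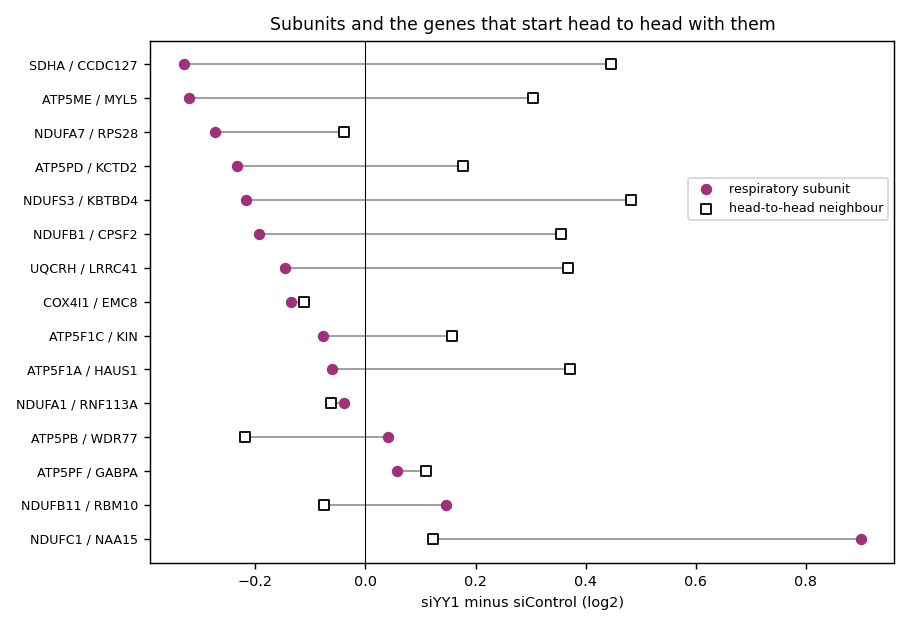
Differences, siYY1 minus siControl (log2, x axis), of 15 subunits (filled points) and of their neighbours (open squares), 1 pair per line, sorted by the subunit's difference. A neighbour is the nearest gene with a start within 1000 bases on the opposite strand, on either side. In 8 pairs the subunit lies below 0 and its neighbour above 0, and NDUFC1 stands far above NAA15.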

How the data were processed

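Total RNA from 2 cultures was labelled with biotin and hybridised to whole-transcript GeneChips, per the labels' protocols. Each probe set has 1 value in the table the authors deposited, used here as log2. The labels and the table name no software, normalization or log base. Folds take the values as plain log2. Once sorted, the arrays were at most 0.153 apart.

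Of 21448 probe sets, 17709 had 1 gene symbol and 3739 none in the platform annotation, and RefSeq (GRCh38.p14) gave gene types, promoters and neighbours. Probe sets of a gene were averaged. A further 9 protein-coding genes with matching symbols were not analysed here.

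With 1 array per group, differences were described by fixed sizes, mainly 1.5-fold, with no test, and the number of arrays limits precision. The steps were tested on simulated data. Named genes were all subunits past 1.5-fold, the 3 highest and 3 lowest of each complex, core and isoform genes, the ends of each list, and neighbours; others were chosen after their values were seen. The members and lists were chosen with earlier results of these data known.

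Alternatives were other filters and thresholds, quantile normalization, median and lowess centring (fraction 0.3), the brightest probe, and other member definitions. Python 3.11.15, numpy 2.4.6, pandas 2.3.3, statsmodels 0.14.6 and matplotlib 3.10.9 were used.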

Additional observations from a re-analysis of the deposited data

How the results depend on the processing

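The median difference of every complex kept its sign and moved by less than 0.1 in all alternatives run, ranging from -0.11 to -0.10 in complex I, -0.34 to -0.32 in complex II, 0.03 to 0.09 in complex III, -0.11 to -0.06 in complex IV and -0.09 to -0.07 in complex V. Under quantile normalization, median centring or lowess centring, 71 of the 73 kept subunits kept their sign, and the 4 subunits past 1.5-fold stayed past it. At the lower fold threshold tried, 4 subunits were higher and 7 lower, and at 2-fold, 0 were higher and 0 lower. The shares of all kept genes past either of these thresholds were not computed. The counts therefore show only how the number of subunits called depends on the threshold, and do not set the subunits apart from the array. With the stricter filter, at the upper quartile, 0 subunits were at least 1.5-fold higher, since NDUFC1 did not pass it. Counting COXFA4 in complex I or complex IV, or leaving out the readthrough and retrogene copies (the last and the complex IV count were added after seeing the data), left every count within 1.5 times its value. No paired analysis was possible because each group had 1 array.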
